A study of Mus musculus with 12 samples.

Results

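Plasma cells are the antibody-secreting end stage of the B lineage, and 9 genes that mark them or their secretory machinery were followed through CD115+ cell fractions of the mouse: Jchain, Derl3, Mzb1, Sdc1, Prdm1, Xbp1, Irf4, Pou2af1 and Slc45a3. They were 9 of the 52553 features in the count tables, and all 9 were among the 20135 features that passed the low-count filter. The genes were chosen by symbol on their counts in these same 12 libraries, in which earlier results had shown a plasma cell signal, so their own levels and differences are given below as a description, without p-values, and the numbers of them that met the call limits support nothing by themselves. Immunoglobulin genes, whose products are the main cargo of a plasma cell, were not analysed here.

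RNA-seq was performed on cells from male C57BL/6 mice in 4 groups of 3 libraries, each library from the pooled cells of 5 mice. The groups were splenic and peripheral blood cells of intact animals, with spleen and liver in place, and the same cells taken 24 h after resection of 70% of the liver from animals that kept the spleen. The methods name isoflurane anesthesia for the operations and meloxicam before and after surgery. The labels call the other animals intact and name no sham operation. Effects of the resection therefore cannot be told apart from those of surgery and drug. All cells came from a mononuclear fraction obtained by gradient centrifugation and were selected with Anti-CD115 magnetic beads, without a further gate against other cell types. The spleen was also digested with collagenase and its red blood cells were lysed, a step the methods do not name for blood. The methods state that the sorted splenic fraction was also immunophenotyped by flow cytometry. Whether a pool shared animals between spleen and blood is not given in the sources used here, so the spread between libraries is that between these pools.

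The differentiation of a B cell into a plasma cell is driven by Irf4 and by Prdm1, which encodes the repressor Blimp-1 and shuts down the B-cell program. Xbp1, a factor of the unfolded protein response, then expands the endoplasmic reticulum (ER), in which antibodies are folded with chaperones, joined into polymers through the J chain, and discarded through ER-associated degradation when misfolded. The spleen is a known site of such cells, whereas few of them circulate. Several of the 9 genes are not restricted to plasma cells: Irf4, Prdm1 and Xbp1 are also used by myeloid and dendritic cells, Mzb1 and Pou2af1 by B cells, and Sdc1 by epithelial cells.

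The promoters of Jchain, Derl3 and Pou2af1 are shown because these genes span the patterns described below, and because the last 2 hold letters that match motifs of the unfolded protein response. The sequences are those of RefSeq on assembly GRCm38.p6, run from 250 bases before to 50 bases after the gene's start and are written 5′ to 3′ along the gene. Capitals mark matches, on either strand, to the core of the unfolded protein response element (UPRE, ACGTGG) or to the 2 ends of the ER stress response element (ERSE, CCAAT, any 9 bases, CCACG).
Jchain, chr5:88527848-88528147, minus strand: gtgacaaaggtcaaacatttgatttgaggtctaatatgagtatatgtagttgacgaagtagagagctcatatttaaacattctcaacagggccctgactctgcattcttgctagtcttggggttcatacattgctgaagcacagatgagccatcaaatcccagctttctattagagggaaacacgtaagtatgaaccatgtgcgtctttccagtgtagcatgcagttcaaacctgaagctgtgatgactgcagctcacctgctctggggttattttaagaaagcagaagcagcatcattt
Derl3, chr10:75893148-75893447, plus strand: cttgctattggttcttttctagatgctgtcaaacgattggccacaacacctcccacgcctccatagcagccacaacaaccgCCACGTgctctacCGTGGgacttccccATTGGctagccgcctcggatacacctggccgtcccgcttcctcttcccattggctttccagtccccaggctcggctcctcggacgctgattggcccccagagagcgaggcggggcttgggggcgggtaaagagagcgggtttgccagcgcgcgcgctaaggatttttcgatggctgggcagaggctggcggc
Pou2af1, chr9:51213440-51213739, plus strand: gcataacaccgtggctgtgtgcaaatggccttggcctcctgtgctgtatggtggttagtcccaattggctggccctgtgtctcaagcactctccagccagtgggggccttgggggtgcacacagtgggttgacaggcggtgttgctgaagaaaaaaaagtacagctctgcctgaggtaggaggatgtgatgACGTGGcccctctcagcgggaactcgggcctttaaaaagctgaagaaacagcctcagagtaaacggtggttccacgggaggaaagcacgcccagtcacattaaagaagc

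In the Derl3 promoter both motifs lie on the strand opposite to the gene, with their first bases at -169 (UPRE core) and -156 (ERSE) relative to the start, and they do not overlap. The ERSE was found in 39 of 32851 promoters of the same length, or 0.119%, so Derl3 belongs to a small set. The UPRE core, at -59 in Pou2af1, is a common string found in 8.31% of promoters. Of the 9 promoters examined for 8 of the genes, 3 held one of the motifs searched, the other being Irf4 with GAAAGT, a core of the sites of Prdm1 and interferon regulatory factors, which 14.3% of promoters hold. The octamer ATTTGCAT, the site class through which Pou2af1 acts, was found in none of the 9 promoters examined and in 1.74% of all promoters. A match describes letters in this window and shows no binding.

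Total estimated counts ran from 36990033 to 46401368 per library. Csf1r, which encodes CD115, was present in all 12 libraries at 209 to 1192 CPM, the counts scaled to the TMM-adjusted size of a library. Other cells were present too: the summed level of 16 B-cell genes ran from 6914 to 8003 CPM in spleen of intact animals and from 833 to 3694 CPM in their blood, with Cd79a and Ms4a1 detected in every library. Haemoglobin genes took 13.2% to 34.2% of the counts in blood and at most 3.47% in spleen. Intact blood library 3 stood apart from its group, with a chi-square per degree of freedom of 455 and 599 against the other 2 libraries, which differed from each other by 61.7. It had the lowest B-cell sum (833 CPM against 2659 and 3694). Some results that turn on it are also given without it, but not all of them. No pair of libraries agreed within sampling noise.

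Jchain, the joining chain that links IgA and IgM into polymers, was the most abundant of the 9 genes in the spleen and almost absent from blood. In the intact spleen its level was 2673, 1862 and 2486 CPM, and in the spleen after resection it was 3411, 4183 and 3699 CPM. In the blood the values were 4.05, 2.54 and 3.85 CPM in intact animals and 13.2, 12.6 and 11.01 CPM after resection. The 4 groups were separate from one another, and the order from low to high was intact blood, resected blood, intact spleen, resected spleen. The splenic CPM values rest on 89205 to 191595 counts per library and those of blood on 99 to 434 counts, where 3 counts correspond to 0.0655 to 0.102 CPM, a limit that covers counting error only. The fitted level in blood was 672-fold lower than in spleen in intact animals (log2 fold change -9.39, SE 0.31) and 307-fold lower after resection (-8.26, SE 0.29). With the haemoglobin genes left out these log2 values were -9.28 and -8.15. After resection the log2 difference was 0.69 (SE 0.21) in spleen, 1.61-fold, and 1.82 (SE 0.22) in blood, 3.53-fold. In bulk RNA a lower level from fewer cells of a type cannot be told apart from less RNA per cell.

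Derl3, a derlin of the ER-associated degradation machinery, followed Jchain at a lower level. The intact spleen held 35.3, 27.1 and 32.1 CPM and the resected animals' spleen 60.2, 52.7 and 56.0 CPM. Blood held 1.05, 1.47 and 1.05 CPM in intact animals and 3.42, 3.43 and 1.89 CPM after resection. No 2 groups overlapped, as for Jchain. Blood was 26.5-fold below spleen in intact animals (log2 fold change -4.73, SE 0.27) and 19.4-fold below it after resection (-4.27, SE 0.26), and the log2 differences after resection were 0.84 (SE 0.23) in spleen and 1.29 (SE 0.25) in blood. Its paralog Derl1, at 109 to 269 CPM over the 12 libraries, had no such gap. The ratio of Derl3 to Derl1 counts was 0.221 to 0.306 in the splenic libraries and 0.00709 to 0.0141 in the blood libraries.

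Slc45a3, a membrane transporter of the solute carrier family, had the same tissue order. Its splenic level was 35.6, 70.8 and 68.2 CPM in intact animals and 125, 160 and 73.0 CPM after resection. Blood held 0.138, 0.129 and 0.284 CPM in intact animals and 0.366, 0.306 and 0.704 CPM after resection, which stand for 5, 5 and 13 counts and for 12, 9 and 25 counts. The resected libraries lay above the intact ones in both tissues, by a narrow margin (73.0 against 70.8 CPM in the spleen, 0.306 against 0.284 CPM in blood). The fitted differences between blood and spleen were 305-fold in intact animals and 255-fold after resection, and those after resection were 1.03 (SE 0.38) in spleen and 1.29 (SE 0.55) in blood on the log2 scale.

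Mzb1, a chaperone cofactor of marginal zone B cells and plasma cells that assists antibody assembly, differed from this first set. Its splenic level was 130, 110 and 158 CPM in intact animals and 204, 176 and 143 CPM after resection, and these groups overlapped. Blood values were 33.9, 51.5 and 10.6 CPM in intact animals and 49.9, 32.3 and 15.7 CPM after resection, again with overlap. Blood lay below spleen in both conditions, by 4.14-fold in intact animals (log2 fold change -2.05, SE 0.54) and by 5.34-fold after resection (-2.42, SE 0.55), far less than for Jchain. The log2 difference after resection was 0.39 (SE 0.52) in spleen and 0.03 (SE 0.52) in blood, and without intact blood library 3 the latter turned to -0.39.

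Sdc1 encodes CD138, the surface proteoglycan by which plasma cells are usually sorted. Its levels in the intact spleen (34.7, 27.4 and 44.6 CPM) and in the intact blood (34.0, 26.1 and 41.2 CPM) were nearly the same, with a log2 difference of -0.07 (SE 0.39). After resection the spleen held 49.6, 43.3 and 62.9 CPM and the blood 13.3, 12.6 and 36.5 CPM in blood, without overlap between the tissues and with a log2 difference of -1.32 (SE 0.40). The third blood library after resection lay well above the other 2. Within a tissue the groups overlapped, with log2 differences after resection of 0.55 (SE 0.39) in spleen and -0.70 (SE 0.39) in blood. Among other syndecans Sdc4 went the opposite way in blood: it was at 28.6, 29.8 and 8.30 CPM in intact animals and at 205, 490 and 791 CPM after resection, a rise of 4.48 on the log2 scale (SE 0.61, edgeR quasi-likelihood adjusted p = 0.00171).

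**Figure D1:**
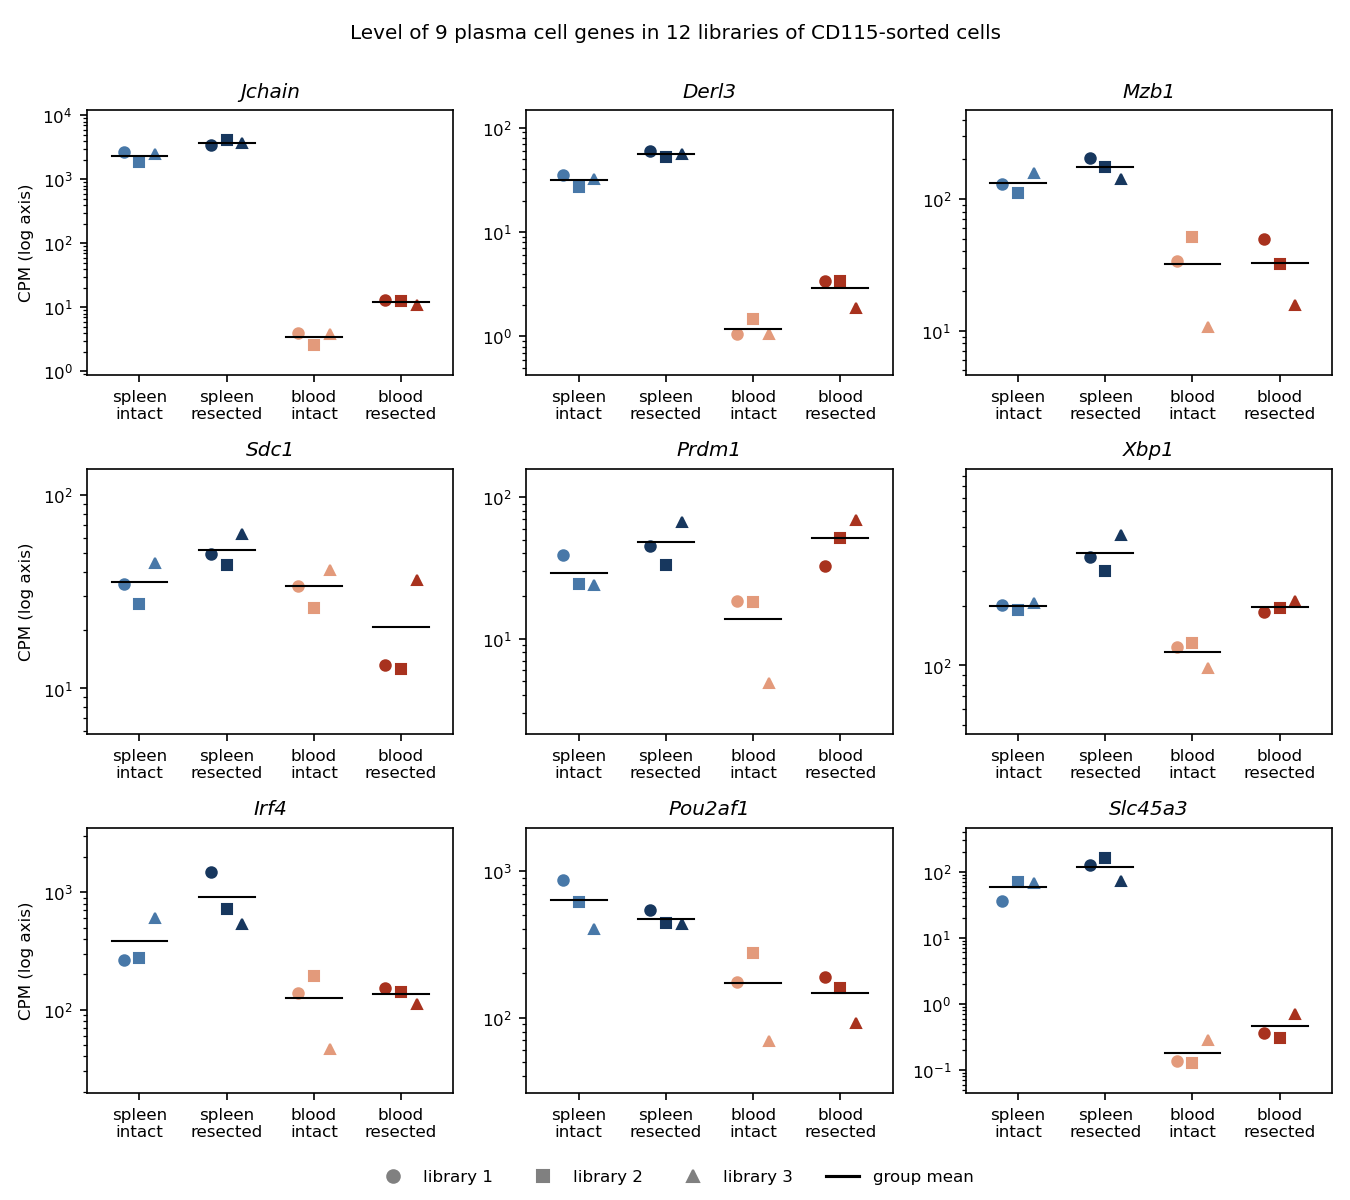
Level of each of the 9 genes in CPM on a log axis for the 12 libraries, with 1 panel per gene, the symbol giving the library number, the color the group and the line the group mean. Jchain, Derl3 and Slc45a3 in blood lie far below the spleen in both conditions, whereas Sdc1 in intact animals and Prdm1 after resection lie at the same height in both tissues.

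The transcription factors of plasma cell differentiation lacked so wide a gap between the tissues. Xbp1 was at 202, 189 and 207 CPM in splenic cells of intact animals and at 353, 298 and 453 CPM after resection. In blood it was at 124, 129 and 97.5 CPM in intact animals and at 185, 195 and 212 CPM after resection. Resected libraries lay above intact ones in both tissues without overlap, by 0.88 (SE 0.17) in spleen and 0.76 (SE 0.17) in blood on the log2 scale, and the log2 differences of blood against spleen were -0.77 (SE 0.17) and -0.90 (SE 0.17). All 4 were under the log2 limit of 1 used for a call.

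Prdm1 had splenic levels of 39.3, 24.2 and 24.0 CPM in intact animals and of 45.5, 32.9 and 67.0 CPM after resection. Its blood levels were 18.3, 18.1 and 4.85 CPM in intact animals and 32.8, 51.2 and 69.2 CPM after resection, 3.71-fold higher without overlap (log2 difference 1.89, SE 0.50; 1.48 without intact blood library 3). Blood and spleen after resection overlapped and differed by 0.08 (SE 0.48) on the log2 scale, while Jchain differed by 307-fold between the same libraries. Prdm1 also received 14.1% of its counts from an entry deposited under an accession.

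Irf4 reached 265, 273 and 608 CPM in splenic cells of intact animals and 1482, 717 and 535 CPM after resection, with overlap and a log2 difference of 1.25 (SE 0.55). The blood libraries held 137, 192 and 46.3 CPM in intact animals and 153, 140 and 112 CPM after resection. Irf4 is also a factor of dendritic cells, and of 9 genes listed for conventional dendritic cells Ccr7, a chemokine receptor that lymphocytes also use, had its highest level in the same library as Irf4, at 1403 CPM in resected spleen library 1 against 713 and 531 CPM in the other 2. In intact blood library 3 both were lowest of their group, with Ccr7 at 115 CPM. The list as a whole did not follow: after resection in spleen 7 of the 9 fitted differences were negative, with a median of -0.87, and Cd209a and Clec9a went from means of 18.2 and 13.9 CPM to 3.02 and 4.45 CPM. The part of dendritic cells in the Irf4 values was not tested.

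Pou2af1, the B-lineage coactivator of octamer-binding factors, was the one gene of the 9 with a lower mean after resection in both tissues. The splenic values were 870, 619 and 404 CPM in intact animals and 542, 446 and 433 CPM after resection, with overlap. Those of blood were 174, 275 and 69.2 CPM in intact animals and 188, 158 and 92.0 CPM after resection, also with overlap. The log2 differences after resection were -0.41 (SE 0.46) in spleen and -0.24 (SE 0.46) in blood, and those of blood against spleen were -1.87 (SE 0.48) in intact animals and -1.70 (SE 0.47) after resection.

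A call required that edgeR's quasi-likelihood test gave an adjusted p-value under 0.05 and that the log2 fold change exceeded 1 in size, and the background is the share of all 20135 features so called. In the spleen 0 of the 9 genes met the limits after resection, where 0.78% of features were called higher and 0.596% lower. DESeq2 called 0 of the 9 there. At an unadjusted p under 0.05 alone there were 5 of the 9, beside 37 higher and 22 lower of the 149 other listed genes tested. The share of all features at that p is not given here. In blood Jchain, Derl3 and Prdm1 met them, all higher, against a background of 7.8% higher and 6.11% lower. Between blood and spleen of intact animals 5 met them (Jchain, Derl3, Mzb1, Pou2af1 and Slc45a3), all lower in blood, against 3.49% lower and 3.86% higher. After resection 7 met them, Sdc1 and Irf4 in addition, against 6.87% lower and 6.28% higher. When the resection effect in blood was set against that in spleen, 0 genes met them, against 0.283% of all features, and DESeq2 called 1. At an unadjusted p under 0.05 alone there were 2 of the 9, beside 35 positive and 8 negative of the 149 other listed genes. The median log2 differences of the 9 genes were 0.73 and 0.76 after resection in spleen and blood, where all features had medians of 0.05 and -0.1. For blood against spleen they were -1.87 and -2.42, against -0.02 and -0.14. By ranges alone, 4 genes were higher without overlap after resection in spleen (17.4% of all features were) and 5 in blood (19.4%), and 8 genes were lower in blood than in spleen in each condition (20.9% and 25.1%).

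**Figure D2:**
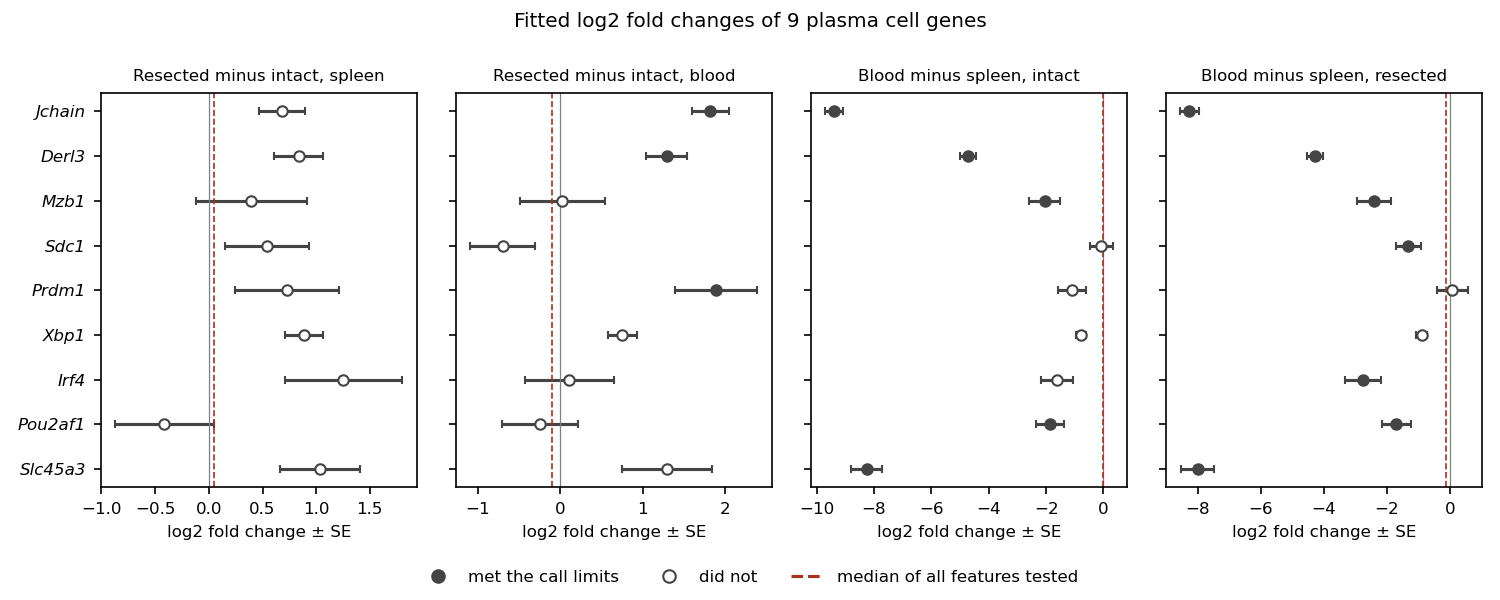
Fitted log2 fold change with its standard error for the 9 genes in 4 comparisons, where filled points met the call limits and the dashed line is the median of all features tested. Jchain and Slc45a3 stand at -8 and beyond for blood against spleen, while the differences after resection stay within 2 log2 units. The horizontal scales differ between panels.

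The calls differed in how often they held when 1 library was left out. Those for Jchain, Derl3 and Slc45a3 between blood and spleen held in all 12 fits that left out 1 library. Those for Mzb1 and Pou2af1 in intact animals held in 2 and 1 of the 12, and those for Sdc1 and Pou2af1 after resection in 2 and 3. Each of these was also lost when some library outside the 2 groups compared was left out. In the blood after resection the call for Prdm1 was lost when library 2 or 3 of the resected animals was left out, at log2 differences of 1.87 and 1.62. After resection the number of the 9 genes called between blood and spleen was 4 when resected spleen library 1 was left out, 3 for blood library 2 of that condition and 4 for blood library 3. In intact animals it was 3 in 10 of the 12 such fits. The share of all features called in each of these fits is not given here, so the counts have no background.

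Per kilobase of exon (union of exons in GENCODE M21), Jchain ranked first in the spleen, with 1680 ± 305 CPM per kb (SD, n = 3) in intact animals and 2702 ± 280.2 after resection. In the intact spleen Pou2af1 came next with 248 ± 91.4 CPM per kb, then Mzb1 with 147 ± 26.8, and the ranges of these 2 overlapped. Xbp1 (83.4 ± 3.78) and Irf4 (80.2 ± 41.1) could not be separated by their spread, nor could Derl3 (23.9 ± 3.12) and Slc45a3 (17.0 ± 5.71), or Slc45a3 and Sdc1 (11.3 ± 2.74). Prdm1 was last with 5.44 ± 1.64 CPM per kb. The order in blood was different. Pou2af1 led in intact animals with 67.9 ± 40.5 CPM per kb, Xbp1 led after resection with 82.6 ± 5.75, Jchain stood in place 7 and then 6 with 2.50 ± 0.585 and 8.81 ± 0.824, and Slc45a3 was last with 0.0535 ± 0.0254 and 0.134 ± 0.0625. In the intact blood the ranges of Pou2af1, Xbp1, Mzb1, Irf4 and Sdc1 overlapped from each to the next, as did those of Prdm1 and Jchain. After resection Xbp1 stood apart from Pou2af1, and overlaps joined Pou2af1, Mzb1 and Irf4 as well as Prdm1, Jchain and Sdc1.

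Ratios of counts within a library do not depend on its scaling and set the genes against B cells. The ratio of Jchain to Cd79a, a subunit of the B-cell receptor, was 2.02, 1.56 and 2.03 in the intact spleen and 3.52, 5.37 and 9.96 in the spleen after resection. In blood it was 0.00944, 0.00406 and 0.0286 in intact animals and 0.0261, 0.0346 and 0.0519 after resection. The splenic groups did not overlap and the blood groups did. Blood libraries thus held Jchain at a small fraction of Cd79a. The ratio of Mzb1 to Cd79a, by contrast, was nearly constant in blood, 0.0739 to 0.0984 over all 6 libraries, although the Cd79a level itself ran from 135 to 626 CPM. In the intact spleen it was of like size, 0.0922 to 0.129, and after resection it was 0.211 to 0.384. The ratio of Pou2af1 to Cd79a was 0.371 to 0.515 in blood and 0.331 to 1.17 in spleen. Jchain to Mzb1 ran from 15.7 to 26 in spleen and from 0.0494 to 0.702 in blood.

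**Figure D3:**
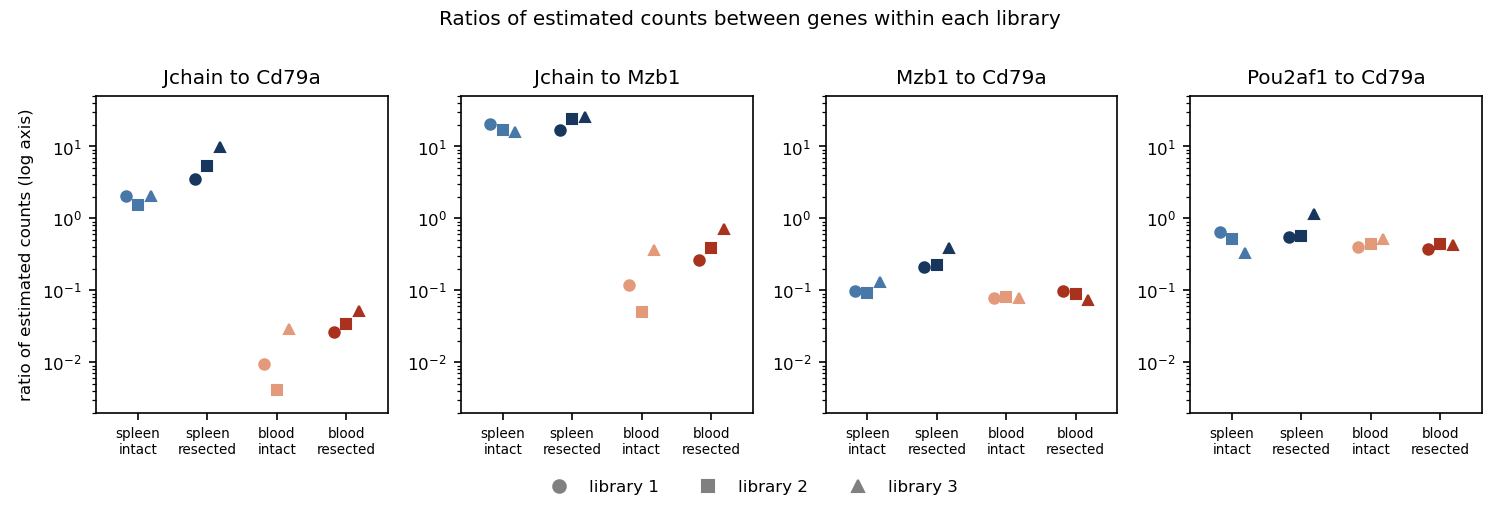
Ratios of estimated counts of 2 genes within each library on a log axis shared by the 4 panels, by group, with the symbol giving the library number. The ratio of Jchain to Cd79a separates spleen (1.56 to 9.96) from blood (0.00406 to 0.0519), whereas the ratio of Mzb1 to Cd79a in blood stays between 0.0739 and 0.0984.

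The 16 B-cell genes went the other way from Jchain in the spleen. Their summed level was 5956, 4301 and 1785 CPM after resection, below the 6914 to 8003 CPM of intact animals, and the fitted differences of 16 of 16 were negative with a median of -0.82, against 0.05 for all features. None of the 16 was called by edgeR, 5 had an unadjusted p under 0.05 and DESeq2 called 3, all lower. For blood 0 were called after resection by edgeR (1 higher and 2 lower at an unadjusted p under 0.05; DESeq2 called 1 higher and 1 lower), with a median of -0.57. Between blood and spleen of intact animals Cr2, Vpreb3, Bcl6 and Cd22 were lower in blood, Vpreb3 with a log2 difference of -3.27 (SE 0.63, edgeR adjusted p = 0.0136), and the median of the list was -1.69. After resection Cr2, Vpreb3 and Fcer2a were lower. The calls for Cd22 and Fcer2a held in 1 and 5 of the 12 fits that left out a library. The part of B cells in the values of Mzb1 and Pou2af1, which they also express, was not tested.

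Within a tissue several pairs of the genes moved together over the 6 libraries, and the pairs did not form separate groups. They are given here as a description, since the points share the split into intact and resected animals and the scaling of each library. On log2 CPM, Derl3 and Jchain had r = 0.93 in spleen and 0.84 in blood, and Prdm1 and Xbp1 had 0.85 and 0.97. Xbp1 also followed Derl3 (0.92 and 0.82) and Jchain (0.81 and 0.86). Mzb1 and Irf4 had 0.95 and 0.91. Mzb1 and Pou2af1 had 0.97 in blood but -0.46 in spleen, and Jchain and Mzb1 had 0.72 in spleen and 0.02 in blood. Derl3 and Sdc1 had 0.8 in spleen and -0.91 in blood, and Pou2af1 and Sdc1 had -0.63 and -0.52.

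Among 17 other genes known from plasma cells, 7 were called lower in blood than in spleen in each condition, against 3.49% and 6.87% of all features. The 17 were chosen with earlier results of these data known, so their p-values are no independent support. The lowest were again nearly absent from blood. Tnfrsf17, which encodes the receptor BCMA, had splenic levels of 2.48, 2.07 and 4.38 CPM in intact animals and 6.59, 7.45 and 1.13 CPM after resection, whereas each blood library held 0 to 3 counts (adjusted p = 0.0109 in intact animals and 0.00526 after resection, edgeR quasi-likelihood test). Bhlha15, the secretory cell factor Mist1, was at 12.5, 10.5 and 21.5 CPM in the intact spleen and 1.90, 1.77 and 0.786 CPM in the intact blood. After resection it was at 40.5, 21.5 and 29.7 CPM in spleen and 1.22, 0.679 and 0.957 CPM in blood, a log2 difference of -5.00 (SE 0.48, edgeR adjusted p = 0.000396). Eaf2, an elongation factor partner, differed by -3.26 (SE 0.34) in intact animals and -4.03 (SE 0.35) after resection on the log2 scale, with adjusted p-values of the same test of 0.00113 and 0.000242. The calls of these 3 genes held in all 12 fits that left out a library. Txndc5, a disulfide isomerase of the ER, was lower in blood in both conditions as well, with log2 differences of -1.61 (SE 0.30) and -1.66 (SE 0.30). The other calls were Tnfrsf13b, Fkbp11 and Cd38 (lower in blood) and Tent5c (higher) in intact animals and Slamf7, Fkbp11 and Ikzf3 (lower) after resection. Of these the calls of Tent5c, of Fkbp11 after resection and of Ikzf3 held in 4, 2 and 2 of the 12 fits. Cd28, used by T cells and plasma cells, was higher in the intact blood than in the intact spleen by 3.28 (SE 0.52, edgeR adjusted p = 0.00623), where 6 of 8 T-cell genes were called higher too.

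After resection 0 of these 17 genes were called in the spleen by edgeR, with 4 higher and 2 lower at an unadjusted p under 0.05 and 1 in each direction by DESeq2, and the median was 0.49. In blood 3 rose and 2 fell, against 7.8% and 6.11% of all features. Cd38, an ectoenzyme of plasma cells and of many activated leukocytes, rose from 27.5, 44.7 and 19.0 CPM to 101, 136 and 197 CPM (log2 difference 2.25, SE 0.34, edgeR adjusted p = 0.00253). Fkbp11, a prolyl isomerase of secretory cells, rose from 0.551, 1.08 and 0.306 CPM to 2.53, 1.87 and 1.72 CPM (1.66, SE 0.44, edgeR adjusted p = 0.0237), and Ell2, an elongation factor for secretory antibody mRNA, rose by 1.52 (SE 0.40, adjusted p = 0.0248 in the same test). The call of Fkbp11 was lost in 3 of the 12 fits that left out a library (intact blood 1, resected blood 1, resected blood 2) and that of Ell2 in 2 (resected blood 2 and 3), while that of Cd38 held in all 12. Cd27 and Cd28 fell by 3.08 (SE 0.47) and 2.47 (SE 0.50), and 6 of 8 T-cell genes fell in the same comparison. The T-cell genes summed to 1211 to 2701 CPM in the intact blood and 318 to 559 CPM after resection, and their part in the fall of Cd27 and Cd28 was not tested.

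Part of the general ER folding machinery rose in blood after resection. Of 20 ER chaperone and folding genes 11 rose and none fell, against backgrounds of 7.8% and 6.11%, and all 20 fitted differences were positive with a median of 1.02, against -0.1 for all features. P4hb, a disulfide isomerase, rose from 303, 281 and 321 CPM to 855, 1133 and 1392 CPM (log2 difference 1.90, SE 0.27, edgeR adjusted p = 0.00193). Ppib, a cyclophilin of the ER, rose from 129, 137 and 133 CPM to 277, 304 and 307 CPM (1.16, SE 0.11, edgeR adjusted p = 0.000546). Manf, Fkbp2 and Sdf2l1 rose as well, by 1.22 (SE 0.13), 1.08 (SE 0.11) and 1.68 (SE 0.19). The summed level of the list was 3933 to 4166 CPM in the intact blood and 6755 to 8813 CPM after resection, above the 5339 to 6778 CPM of the spleen after resection with 1 library overlapping. The summed level of 12 monocyte genes was also higher in blood after resection, at 12920 to 15080 CPM against 3764 to 9707 CPM. The list did not rise as a whole: 8 of the 12 fitted differences were positive and 4 negative, with a median of 0.45. The T-cell sum was lower as given above, and the part of monocytes and T cells in the ER genes was not tested. In the spleen 0 of the 20 were called by edgeR after resection or by DESeq2, with 7 higher at an unadjusted p under 0.05, and the median was 0.28. A difference between the tissues in this response was called for 0 of them by edgeR, with 15 at an unadjusted p under 0.05 and 6 by DESeq2, all toward blood.

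These genes serve every secreting cell, and their levels were not tied to the spleen as those of Jchain and Derl3 were. Between blood and spleen of intact animals Creld2 and Pdia4 were lower in blood and none was higher, the call of Pdia4 holding in 1 of the 12 fits that left out a library. After resection P4hb, Pdia3 and Pdia5 were higher in blood and none was lower. Of 19 translocon and signal peptidase genes Ssr4, a subunit of the translocon-associated complex, was called in blood after resection, higher by 1.33 (SE 0.15, edgeR adjusted p = 0.000773), and the median of the list was 0.56. In the spleen 0 were called by edgeR or DESeq2, with 10 higher at an unadjusted p under 0.05. Between the tissues Sec61g was higher in blood in both conditions and Serp1 was lower in intact animals, a call that held in 0 of the 12 fits without a library. Of 12 genes of ER-associated degradation Edem2 was called in blood after resection (1.03, SE 0.15, edgeR adjusted p = 0.00219) and 0 in the spleen by edgeR (6 higher and 1 lower at an unadjusted p under 0.05, and 1 by DESeq2). Edem2 and Syvn1 in intact animals and Herpud1 after resection were lower in blood, and these calls held in 0, 9 and 5 of the 12 fits.

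Of 8 sensors and factors of the unfolded protein response Atf4, the factor of its translational arm, was called higher in the spleen after resection, from 319, 337 and 532 CPM to 932, 757 and 725 CPM (log2 difference 1.02, SE 0.22, edgeR adjusted p = 0.0487). Its call held in 2 of the 12 fits that left out a library. Ddit3, which Atf4 induces, had a log2 difference of blood against spleen of -2.04 after resection (SE 0.42, adjusted p = 0.01 in the same test). In blood 0 of the 8 were called after resection by edgeR or DESeq2, with 2 higher at an unadjusted p under 0.05.

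**Figure D4:**
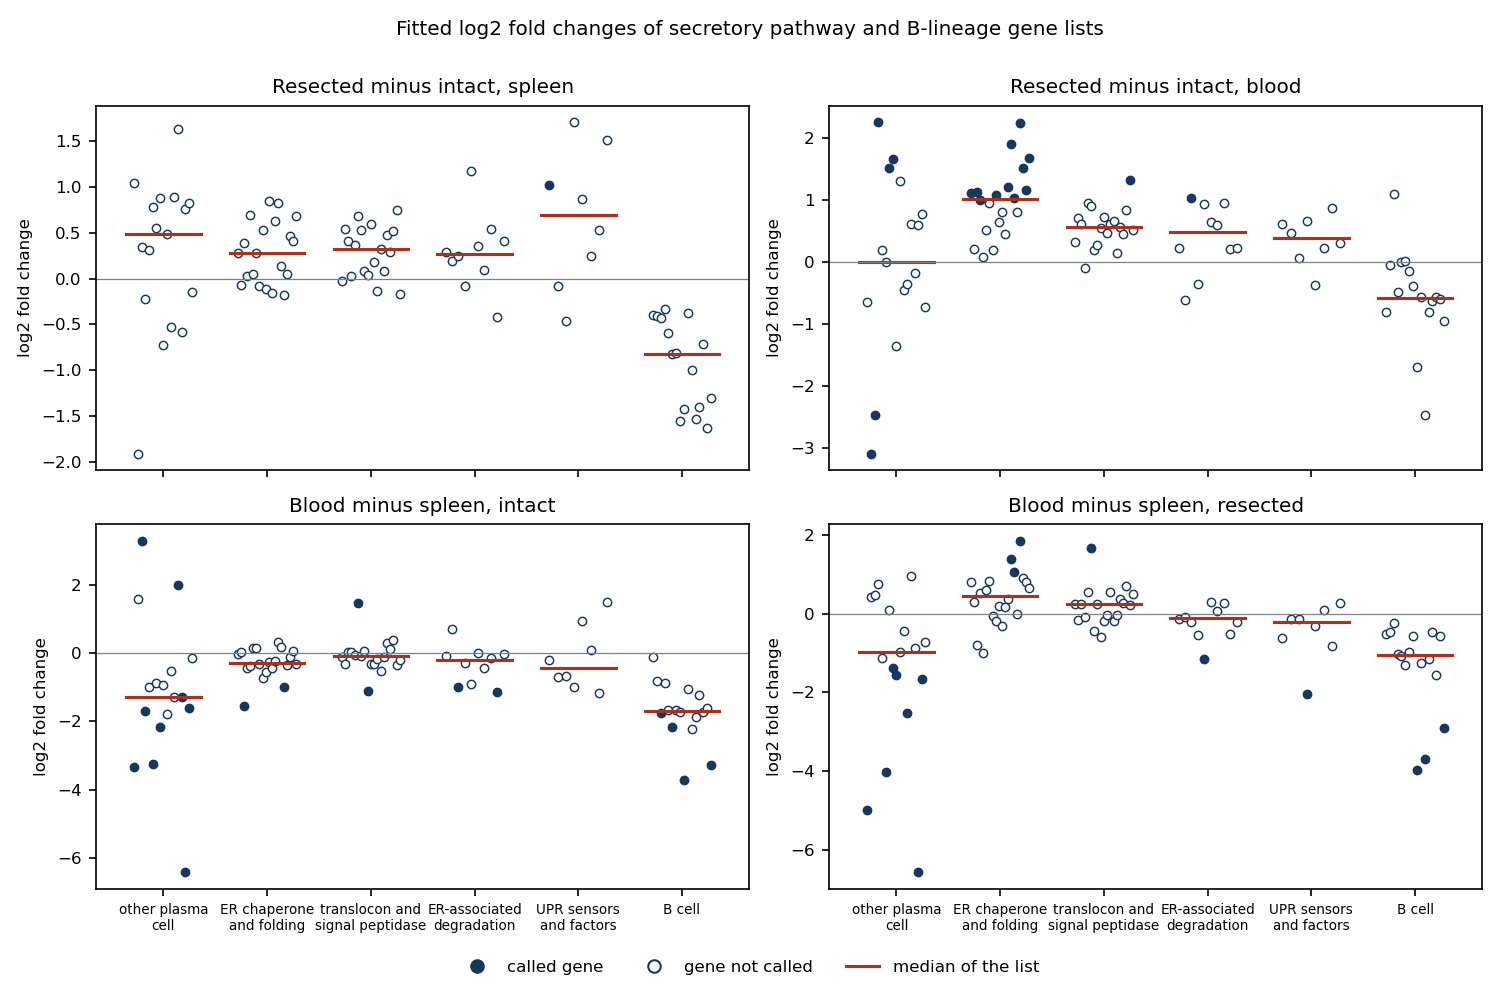
Fitted log2 fold changes of the genes of 6 lists in 4 comparisons, with 1 point per gene, filled where called, and a line at the median of the list (UPR, unfolded protein response). In blood after resection the 20 ER chaperone and folding genes all lie above 0 with 11 called, whereas the other plasma cell genes scatter on both sides with a median of 0.01. The vertical scales differ between panels.

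Partners and paralogs of the 9 genes gave few calls. Of 10 tested, Sdc4 and Sdc3 rose in blood after resection, Sdc3 by 1.58 (SE 0.38, edgeR adjusted p = 0.0178). Irf8, the relative of Irf4, was lower in the intact blood than in the intact spleen (log2 difference -1.58, SE 0.43, edgeR adjusted p = 0.0461), a call that held in 1 of the 12 fits without a library. The ratio of Irf4 to Irf8 counts was 0.495 to 1.19 in the intact spleen, 1.85 to 3.33 in the spleen after resection and 0.665 to 1.02 in the 6 blood libraries. Pigr, the receptor that carries polymeric antibodies with a J chain across epithelia, was low everywhere and lower in blood than in spleen after resection, at 0.409 against 3.12 CPM (adjusted p = 0.0189 in the edgeR test). In the spleen 0 of the 10 were called after resection by edgeR, with 2 in each direction at an unadjusted p under 0.05 and 1 in each by DESeq2.

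Lists were also examined for the other cell types that a CD115 fraction could hold. Of 8 genes of plasmacytoid dendritic cells, which share secretory genes with plasma cells, Ccr9 fell in blood after resection and was higher in the intact blood than in the intact spleen, and Ly6d was lower in the blood than in the spleen after resection, a call that held in 3 of the 12 fits without a library. The list summed to 181 to 236 CPM in the intact spleen and 76.2 to 177 CPM in the intact blood. Of 9 conventional dendritic cell genes Flt3 and Zbtb46 were lower in blood than in spleen in both conditions, while Clec10a was higher in blood in both, by 1.03 and 4.57 on the log2 scale, the first of these calls holding in 3 of the 12 fits that left out a library. Clec10a rose in blood after resection, a call that held in all 12 fits, and fell in spleen, a call that held in 1. Hdc, of 8 basophil and mast cell genes, rose in blood after resection by 4.59 (SE 0.82, edgeR adjusted p = 0.00487), whereas the fitted differences of 6 of the 8 were negative and the median was -1.05. Of 4 mesothelial genes tested, 3 in intact animals and 4 after resection were higher in blood than in spleen, at a sum of at most 5.71 CPM. Of 12 monocyte genes Itgam, Cd14 and Fcgr1 rose and Cx3cr1 and Spn fell in blood after resection. The calls of Itgam and Cd14 each held in 8 of the 12 fits and were lost without intact blood library 3, among others. That of Cx3cr1 held in 10, and those of Fcgr1 and Spn in all 12. In spleen 0 were called by edgeR (2 higher and 3 lower at an unadjusted p under 0.05, and 1 higher and 2 lower by DESeq2). None of 7 hepatocyte genes passed the filter, with Alb at 60 counts in intact blood library 3 and 0 to 2 counts in the others.

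The 10 features with a symbol whose log2 CPM followed Jchain most closely over the 12 libraries had Pearson r between 0.9755 and 0.989, with the points falling into 6 splenic and 6 blood libraries. They were Tsga13, Vcam1, Slc1a3, Dgki, Gm34484, Vstm4, Sema6d, Epb41l3, Gm26555 and Slc16a9. Vcam1, an adhesion molecule of splenic stroma and macrophages, was at 645 ± 185 CPM (SD, n = 3) in the intact spleen and 955 ± 598 after resection, and at 0.498 ± 0.0787 and 3.55 ± 1.89 CPM in blood. Tsga13, first in the list, was at 4.30 ± 0.903 and 8.19 ± 4.02 CPM in spleen, listed at 0 in the 3 intact blood libraries and at most 0.034 CPM after resection. None of the 10 belonged to the plasma cell, ER or B-cell lists.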

How the data were processed

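The authors deposited 1 table per library of estimated counts (expected counts, with decimals), not scaled to library size or gene length. The submitters' processing notes name STAR and GRCm39, and the counting tool and its treatment of shared reads are not given in the sources used here. Of 67088 entries, 2558 unassigned transcripts (1.75% to 4.33% of a library) were left out, 25340 of 40274 accessions were given symbols through a RefSeq table of GRCm38.p6 (used for names only), and counts were summed to 52553 features and rounded. Among the 9 genes, Derl3 (6.68%) and Prdm1 (14.1%) received counts from accessions.

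Features were filtered with filterByExpr, scaled with TMM (factors 0.661 to 1.26) and fitted in R 4.3.3 with edgeR 4.0.16 (robust quasi-likelihood test, 4 groups, 12 libraries, no covariates), with Benjamini-Hochberg adjustment over 20135 features and the standard error taken as the log2 fold change over the square root of F. The fit was tested on simulated data, and DESeq2 1.42.0 was an alternative. Replicate numbers were not used to pair the libraries in the main fit. Correlations of deviations between libraries of the same number ran from -0.046 to 0.189. Those above 0.1 were 0.131 and 0.189, for libraries 2 and 3 of blood against spleen after resection, so a pairing there is not excluded.

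The 9 genes and all lists were chosen with earlier results of these data known, so the p-values of listed genes are no independent support. Named are the 9 genes, Csf1r, from each list the called genes (at most 4 with the smallest p-values per comparison, or else the 2 highest), and the 10 features most like Jchain; other genes are named as markers, in ratios or after their values were seen. One gene's promoter is not reported here. P-values measure only the spread between pools of 5 mice.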

Additional observations from a re-analysis of the deposited data

Results flagged for a closer look

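Clec10a, a lectin of dendritic cells and macrophages from the list of conventional dendritic cell genes, was flagged because its resection effect differed between the tissues in a test of that difference: 3.54 on the log2 scale (SE 0.41, edgeR quasi-likelihood adjusted p = 0.0215). Its mean level went from 5.40 to 1.98 CPM in spleen and from 11.01 to 46.9 CPM in blood. The call held in 9 of 12 fits that left out a library, and was lost with the replicate number as a block.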

How the results depend on the processing

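The depth leaves Slc45a3 at 5 to 25 counts and Tnfrsf17 at 0 to 3 counts in blood, so their folds are imprecise. Of the values of the 9 genes under the alternatives, 835 kept direction and side of the limits, 65 fell below them, 11 passed them and 20 changed sign, and the causes were not tested. In this section a count at an unadjusted p keeps the log2 limit of 1, whereas the counts above at an unadjusted p under 0.05 used no such limit. The number of the 9 genes called after resection was 2 in spleen at an unadjusted p (0 to 1 without single libraries) and 1 in blood when only the 2 groups were fitted. For blood against spleen in intact animals it was 3 without the low-count filter, with entries as deposited under the symbol or with only the 2 groups (3 to 5 without single libraries), where the median ran from -2.29 to -1.39. After resection it was 3 to 7 without single libraries. For the difference of the resection effects it was 1 with DESeq2 and 2 at an unadjusted p, and the median of 0.17 ran from -0.21 to 0.28 without single libraries. The shares of all features called in these alternative fits are not given here, so the counts of the 9 genes have no background.

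Of the 149 other listed genes tested, 2 were called in spleen after resection: 1 with RLE factors, entries under the symbol or only the 2 groups, 0 without the low-count filter, 7 with at least 10 counts in every library, 20 with DESeq2, 29 at an unadjusted p and 0 to 17 without single libraries (17 without intact blood library 3). In blood after resection the count was 34 (22 to 42 without single libraries, 22 without resected blood library 2). For blood against spleen it was 40 in intact animals (25 with only the 2 groups, 61 at an unadjusted p, 14 to 37 without single libraries) and 37 after resection (18 to 43). For the difference it was 1 (3 with at least 10 counts, 15 with DESeq2, 20 at an unadjusted p, 0 to 2 without single libraries).

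Signs changed for small differences. Leaving out single libraries moved the log2 difference of Mzb1 after resection in blood from 0.03 to between -0.42 and 0.55, Pou2af1 from -0.24 to between -0.63 and 0.26, and Irf4 from 0.11 to between -0.29 and 0.55. For blood against spleen Sdc1 in intact animals ran from -0.14 to 0.22 (0.04 without haemoglobin genes) and Prdm1 after resection from -0.09 to 0.48. The differences between the tissues' effects ran from -0.21 to 0.69 for Pou2af1, -0.26 to 0.05 for Xbp1, -0.15 to 0.75 for Slc45a3 and -0.8 to 0.16 for Mzb1.

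With the replicate number as a block, the groups share numbers but no stated animals. The call of Prdm1 in blood was lost, at a log2 difference of 1.92, and 1 other listed gene was called in spleen and 0 for the difference between tissues. The count of the 9 genes was 0, 2, 5, 7 and 0 over the 5 comparisons, and the share of all features called in this fit is not given here.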
